A study of Homo sapiens with 13 samples.

Results

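The response of an RFTS-deleted DNMT1 to a DNMT1 inhibitor was followed by chromatin immunoprecipitation of the GFP tag and sequencing (ChIP-seq). The cells were MV4-11, an acute myeloid leukaemia line of human origin that carries a KMT2A fusion. The 4 libraries of this comparison (of 13 samples in the series) were taken by their labels: RFTSdel with DMSO, replicates 1 and 2, and RFTSdel with DNMT1i, replicates 1 and 2. All 4 came from MV4-11 cells that carried a guide RNA against DNMT1 and overexpressed a GFP-tagged DNMT1 lacking the RFTS domain, so the DMSO cells carried the same deletion. Cells grew for 7 days in DMSO or in 100 nM GSK3685032, a reversible inhibitor selective for DNMT1. The other lines used beside them carried the same guide and wild-type GFP-DNMT1: WT without a further guide, NTC with a non-targeting guide, and UHRF1KO with a guide against UHRF1, each with 1 DMSO and 1 DNMT1i library. Untreated parental MV4-11 cells gave the background of the antibody. By the labels, RFTSdel, WT and parental cells belonged to batch 1 and NTC and UHRF1KO to batch 2. Nothing in the labels says that replicates were separate cultures or how many clones a line held, so the spread between replicates may be technical. The peak lists give no level of any protein, and neither the loss of endogenous DNMT1 nor the amount of the tagged protein could be checked.

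DNMT1 copies CpG methylation onto the new strand after replication. Its RFTS domain (replication foci targeting sequence) folds over the catalytic centre and keeps the free enzyme inactive, and it also binds the ubiquitinated histone H3 that UHRF1 produces at hemimethylated DNA. A protein without RFTS therefore lacks both the brake and this route to chromatin, but it still has the CXXC zinc finger, which binds unmethylated CpG. Most promoters of broadly expressed genes lie in CpG islands, stretches rich in CpG that are usually unmethylated.

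Each library is a list of broad peaks called by the authors. After restriction to chromosomes 1 to 22 and X and removal of peaks that overlapped a parental peak, RFTSdel DMSO held 12240 and 14020 peaks in replicates 1 and 2, and RFTSdel DNMT1i held 7559 and 11138. The 4 lists merged into 19195 regions, of the 48763 regions formed by all 10 GFP-DNMT1 libraries. A region counts as DMSO-only when both DMSO libraries and neither DNMT1i library called it, as DNMT1i-only in the opposite case, and as retained when all 4 called it. Promoters are RefSeq windows of 300 bases, from 250 bases before to 50 after a transcription start, of 15811 protein-coding genes.

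Promoter sequences of the 2 best ranked genes of each class are printed as examples of the windows in which CpG was counted. They are from RefSeq (GRCh38.p14), are written 5′ to 3′ on the gene's strand, and have each CpG in capitals. ZNF414 (chr19:8514118-8514417, a zinc finger gene, 22 CpG) and USP32 (chr17:60392084-60392383, a deubiquitinating enzyme, 32 CpG) led the DMSO-only promoters.
ZNF414: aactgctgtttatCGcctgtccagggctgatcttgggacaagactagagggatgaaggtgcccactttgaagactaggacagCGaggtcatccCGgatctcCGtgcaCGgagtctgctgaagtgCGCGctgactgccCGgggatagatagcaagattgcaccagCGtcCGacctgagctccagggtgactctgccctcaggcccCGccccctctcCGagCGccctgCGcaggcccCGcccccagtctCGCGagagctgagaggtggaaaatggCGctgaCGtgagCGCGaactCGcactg
USP32: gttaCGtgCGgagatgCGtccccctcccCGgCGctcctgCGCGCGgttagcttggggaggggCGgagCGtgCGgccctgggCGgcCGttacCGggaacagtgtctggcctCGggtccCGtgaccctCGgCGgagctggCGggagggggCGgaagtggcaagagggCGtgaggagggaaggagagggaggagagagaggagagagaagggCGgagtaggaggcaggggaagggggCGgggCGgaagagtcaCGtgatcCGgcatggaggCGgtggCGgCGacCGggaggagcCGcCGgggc

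FAM3C (chr7:121396259-121396558, a secreted protein, 35 CpG) and MC5R (chr18:13823899-13824198, a melanocortin receptor, 32 CpG) led the promoters called in all 4 libraries.
FAM3C: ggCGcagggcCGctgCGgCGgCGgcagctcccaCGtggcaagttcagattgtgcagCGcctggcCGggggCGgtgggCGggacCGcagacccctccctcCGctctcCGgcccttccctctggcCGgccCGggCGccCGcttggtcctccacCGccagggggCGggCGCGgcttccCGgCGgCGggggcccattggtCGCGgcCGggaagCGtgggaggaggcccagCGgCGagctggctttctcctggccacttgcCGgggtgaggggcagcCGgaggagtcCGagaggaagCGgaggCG
MC5R: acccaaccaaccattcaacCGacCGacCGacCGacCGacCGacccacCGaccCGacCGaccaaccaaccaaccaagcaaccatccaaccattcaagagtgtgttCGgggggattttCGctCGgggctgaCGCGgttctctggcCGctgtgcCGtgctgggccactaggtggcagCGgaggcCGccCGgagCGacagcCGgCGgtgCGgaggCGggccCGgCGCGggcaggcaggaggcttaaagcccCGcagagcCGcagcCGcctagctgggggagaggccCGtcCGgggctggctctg

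SAP25 (chr7:100573851-100574150, a component of SIN3 corepressor complexes, 29 CpG) and MYO1D (chr17:32877075-32877374, an unconventional myosin, 43 CpG) led the DNMT1i-only promoters. These 6 were chosen by rank, and their CpG numbers overlap between the classes: USP32 and MC5R both had 32, and SAP25 had fewer. The difference in CpG is one between medians over all windows and is given further on.
SAP25: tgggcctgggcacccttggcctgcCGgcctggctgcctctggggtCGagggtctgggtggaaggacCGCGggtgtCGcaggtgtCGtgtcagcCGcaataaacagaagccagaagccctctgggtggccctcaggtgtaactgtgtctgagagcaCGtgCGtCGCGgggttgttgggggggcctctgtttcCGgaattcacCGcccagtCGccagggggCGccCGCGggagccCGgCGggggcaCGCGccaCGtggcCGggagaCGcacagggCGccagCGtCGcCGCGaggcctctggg
MYO1D: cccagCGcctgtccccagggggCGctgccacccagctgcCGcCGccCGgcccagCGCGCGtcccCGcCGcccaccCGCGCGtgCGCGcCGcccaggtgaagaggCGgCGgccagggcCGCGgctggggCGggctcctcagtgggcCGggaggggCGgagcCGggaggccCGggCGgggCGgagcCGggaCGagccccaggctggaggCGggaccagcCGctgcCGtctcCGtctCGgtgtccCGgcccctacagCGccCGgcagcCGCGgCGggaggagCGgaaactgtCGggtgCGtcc

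Fewer peaks were called with the inhibitor in both pairs of RFTSdel libraries, and at the authors' threshold the lists were shortened less than in cells with wild-type DNMT1. The log2 ratio of peak number, DNMT1i over DMSO, was −0.70 in replicate 1 and −0.33 in replicate 2. It was −1.97 in WT, −2.01 in NTC and −2.81 in UHRF1KO. The mean of the RFTSdel pairs was 1.48 above the mean of WT and NTC on the log2 scale, and the groups of pairs did not overlap (exact two-sided permutation test, 2 against 2 pairs, p = 0.333, the smallest this design allows). This gap depended on the weaker peaks. When lists were limited to −log10 q of 4 and above, the gap was 0.15 (exact p = 1) and the difference within RFTSdel was −2.08, and with fold enrichment of 4 and above these values were 0.33 and −1.06. WT was the single pair of batch 1 to set beside RFTSdel, and NTC belonged to the other batch. Within RFTSdel, the mean log2 peak number was 13.68 ± 0.14 (SD, n = 2) with DMSO and 13.16 ± 0.40 with DNMT1i, a difference of −0.51 (exact p = 0.333). It was −0.23 without DNMT1i replicate 1 and −0.79 without DNMT1i replicate 2. Covered length was 9.38 and 11.2 Mb with DMSO and 5.21 and 8.52 Mb with DNMT1i, a log2 difference of −0.62 (exact p = 0.333), or −0.26 and −0.97 without the same libraries. The DNMT1i libraries lay below both DMSO libraries in each measure, and DNMT1i replicate 1 was the shortest list of the 4. The lists hold no read counts, so fewer bound sites and a weaker or shallower library cannot be told apart.

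**Figure D1:**
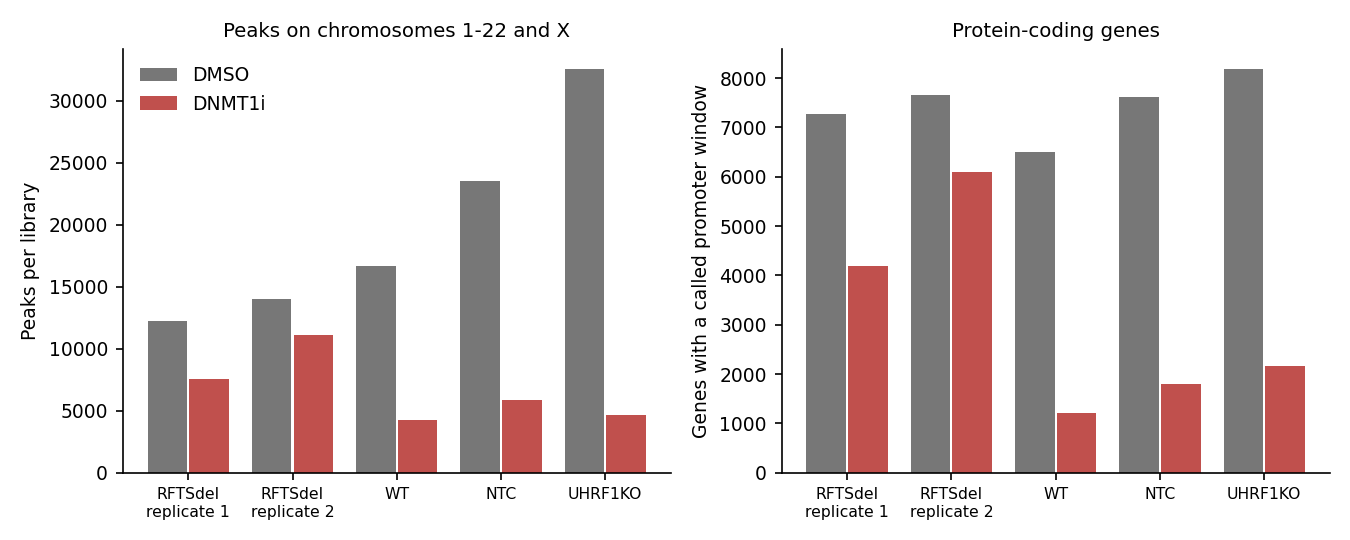
Left, peaks per library after removal of parental peaks; right, protein-coding genes with a called promoter window; grey bars are DMSO and red bars DNMT1i, 1 library each. RFTSdel DNMT1i libraries hold 7559 and 11138 peaks, and the DNMT1i libraries of the other lines hold 4254 to 5840.

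Fewer promoters were called with the inhibitor in every line. In RFTSdel, 7264 and 7666 genes had a called promoter with DMSO, and 4200 and 6099 with DNMT1i. The corresponding numbers were 6506 and 1202 in WT, 7627 and 1805 in NTC, and 8176 and 2157 in UHRF1KO. All 3 lines with wild-type DNMT1 thus had fewer called promoters with the inhibitor than either RFTSdel DNMT1i library, from a similar number with DMSO. Their DMSO peaks were weaker, with median −log10 q of 2.18, 1.96 and 2.14, against 4.36 and 4.31 in RFTSdel. Promoters made up 54.5% and 50.0% of RFTSdel DMSO peaks and 52.0% and 51.0% of DNMT1i peaks. That share differed by −0.76 percentage points, within the spread between replicates (exact permutation test, p = 1). It was larger among strong peaks, at −8.59 points with the 4 lists cut to equal length by strength, −7.71 at −log10 q of 4 and above and −3.31 at fold enrichment of 4 and above, and in these 3 settings the groups did not overlap (exact p = 0.333). Its direction was the opposite, by 6.05 points, when a promoter was taken as 1 kb around a start (exact p = 0.333), and by 1.48 points without DMSO replicate 1. Peaks outside any annotated gene made up 11.1% and 12.6% with DMSO and 9.30% and 10.4% with DNMT1i (difference −1.96 points, exact p = 0.333). With the 4 lists cut to equal length by strength this difference was 2.02 points in the other direction.

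The sites called with the inhibitor were mostly sites called without it. Of the peaks of DNMT1i replicate 1, 74.9% overlapped a peak of DMSO replicate 1 and 75.9% one of DMSO replicate 2. For DNMT1i replicate 2 these shares were 69.3% and 71.1%. In the other direction, 46.1% of DMSO replicate 1 peaks and 40.7% of DMSO replicate 2 peaks overlapped a peak of DNMT1i replicate 1, and 63.0% and 56.3% one of DNMT1i replicate 2. The DMSO replicates overlapped each other in 88.2% of the peaks of replicate 1 and 76.7% of replicate 2, and the DNMT1i replicates in 84.0% and 56.7%. Replicates thus shared more of their peaks than DMSO shared with DNMT1i, apart from replicate 2 of the inhibitor, whose longer list was matched better by the DMSO lists than by its own replicate.

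Overlap followed peak strength. DMSO replicate 1 was divided into 10 equal groups by the authors' −log10 q, which states how unlikely a peak is under the caller's background model. Of its weakest group, 50.4% overlapped a peak of DMSO replicate 2, 18.7% one of DNMT1i replicate 2 and 8.66% one of DNMT1i replicate 1. In its strongest group these shares were 99.9%, 96.4% and 90.03%. For the strongest group of DMSO replicate 2 the shares were 95.1% in DNMT1i replicate 2 and 85.2% in DNMT1i replicate 1. Most of the strongest DMSO sites were therefore called again with the inhibitor, and the gap between DMSO and DNMT1i libraries was wider below the middle of the list than at its top.

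**Figure D2:**
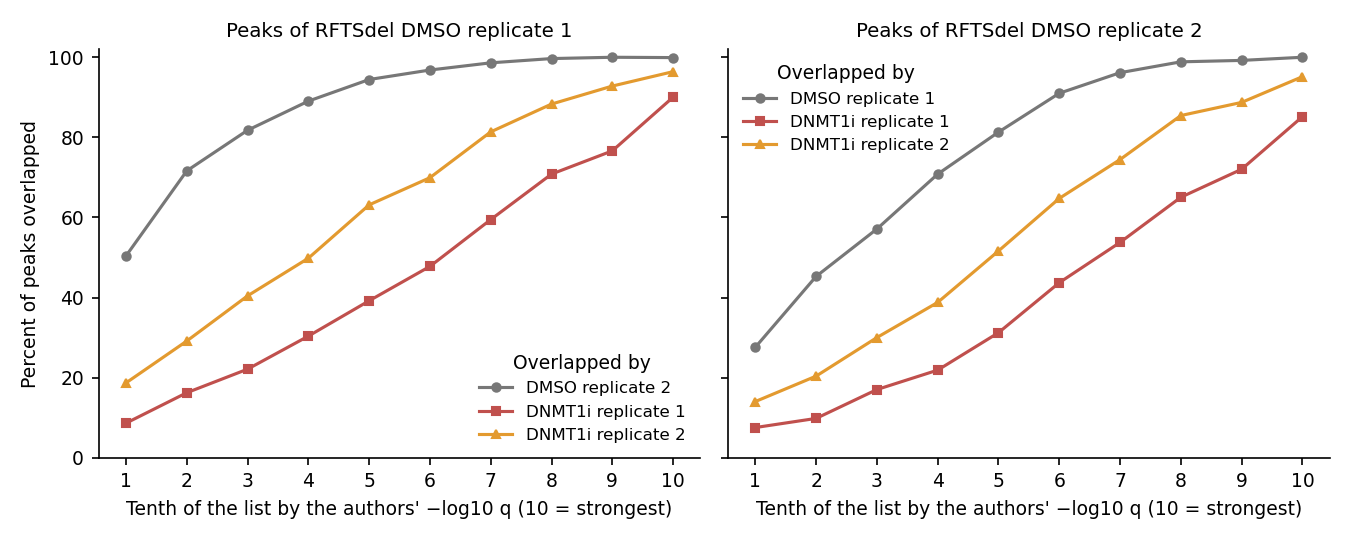
Percent of the peaks of each RFTSdel DMSO library overlapped by at least 1 bp in the other 3 RFTSdel libraries, in 10 equal groups by the authors' −log10 q (horizontal axis, 10 is the strongest). Grey is the other DMSO replicate, red DNMT1i replicate 1 and orange DNMT1i replicate 2; for DMSO replicate 1 the lines end at 99.9%, 90.03% and 96.4%.

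Of the 19195 regions, 5236 were retained (27.3%), 2901 were DMSO-only (15.1%) and 859 were DNMT1i-only (4.48%). A further 2581 were called in both DMSO and 1 DNMT1i library, in 2268 of these cases replicate 2, and 211 in both DNMT1i and 1 DMSO library. Of the 10718 regions called in both DMSO libraries, 48.9% (95% Wilson interval 47.9 to 49.8) were retained, 24.1% were called in 1 DNMT1i library and 27.1% (26.2 to 27.9) in neither. Of the 6306 called in both DNMT1i libraries, 83.0% were retained and 13.6% (12.8 to 14.5) were DNMT1i-only. Intervals cover counting error only. The counts leaned on single libraries: DMSO-only regions numbered 5765 without DMSO replicate 1 and 5183 without DNMT1i replicate 2, and DNMT1i-only regions 3015 without DNMT1i replicate 1 and 1706 without replicate 2. With the lists cut to the length of the shortest, DMSO-only regions numbered 1028.

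Retained regions were the widest, with a median of 1213 bp against 614 bp for DMSO-only and 840 bp for DNMT1i-only regions. A retained region joins peaks of 4 lists and the other 2 classes join peaks of 2, which adds to its width. Covered width within single libraries had medians of 432 and 518 bp for DMSO-only regions in the DMSO replicates. For DNMT1i-only regions it was 571 and 650 bp in the DNMT1i replicates. Most retained regions were narrower with the inhibitor than with DMSO. Within retained regions the median covered width was 901 and 985 bp in the DMSO replicates and 609.5 and 797 bp in the DNMT1i replicates, and 78.4% of regions were narrower with DNMT1i in replicate 1 and 69.8% in replicate 2. Between the DMSO replicates, 37.6% were narrower in replicate 2, and between the DNMT1i replicates 28.4%. The median log2 ratio of width was −0.48 and −0.28 for DNMT1i over DMSO in pairs 1 and 2 and 0.29 for replicate 2 over replicate 1 of DNMT1i, so the difference in pair 2 was no larger than that between the DNMT1i replicates. Promoter windows were overlapped by 68.0% of retained, 45.9% of DMSO-only and 39.3% of DNMT1i-only regions, against 43.1% of all regions. Regions outside any gene made up 4.74%, 14.5% and 10.1% of these classes.

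Promoters called with the inhibitor had more CpG than those called with DMSO alone. The median number of CpG in the called windows of a library was 30 and 29 with DMSO and 34 and 32 with DNMT1i. The groups did not overlap, and the difference of 3.5 was the same in direction in both pairs (exact two-sided permutation test, n = 2, p = 0.333). With the lists cut to equal length by strength it was 2. By class, the median was 23 CpG in 2099 DMSO-only windows, 29 in the 2429 windows called in both DMSO and 1 DNMT1i library, 35 in 3975 retained windows and 36 in 335 DNMT1i-only windows. Windows that no RFTSdel library called had a median of 7, and all 22131 windows one of 21. GC content took the same order, 62.7%, 67.3%, 72.3% and 74.7%. Promoter windows of long noncoding RNA genes, which entered none of these counts, had medians of 24, 30, 35 and 38.5 CpG in the same 4 classes.

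The share of DMSO promoters called again with the inhibitor differed in steps with CpG number. Among windows called in both DMSO libraries, 3.54% of the 113 with 0 to 9 CpG were called in both DNMT1i libraries. That share was 16.4% at 10 to 19 CpG, 31.8% at 20 to 29, 57.4% at 30 to 39 and 78.4% (95% Wilson interval 76.3 to 80.4) of the 1528 with 40 or more. Windows called in neither DNMT1i library made up 81.4%, 56.3%, 33.7%, 13.4% and 4.19% of the same groups. Between the DMSO replicates the share of replicate 1 windows called in replicate 2 also differed with CpG number, from 72.9% to 98.3%, and the share of replicate 2 windows called in replicate 1 from 49.3% to 98.4%. CpG-rich windows also had stronger peaks. The windows were divided into 5 equal groups by the lower of the DMSO replicates' −log10 q. Over these groups the median of retained windows lay between 30 and 37 CpG and that of DMSO-only windows between 22 and 26. Strength still varied within a group, from 7.53 to 67.6 in the strongest and from 1.02 to 2.79 in the weakest, so it was not held equal. In the strongest of these groups, 37.2% of windows with under 20 CpG and 84.5% of windows with 30 or more were retained. In the weakest group the shares were 5.70% and 32.2%.

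In the lines with wild-type DNMT1 the same order was seen at a lower level. Of WT DMSO windows, 0% with 0 to 9 CpG and 8.77% with 40 or more were called with DNMT1i; the shares were 1.58% and 14.2% in NTC and 4.29% and 28.6% in UHRF1KO. In RFTSdel they were 3.87% and 80.4% for replicate 1 and 13.97% and 92.7% for replicate 2. A window with 40 or more CpG was thus called again in at least 80.4% of cases within an RFTSdel pair and in at most 28.6% in the other lines, which had 1 library per treatment and no replicate check. The DMSO peaks of RFTSdel were also stronger, with median −log10 q of 4.36 and 4.31, against 2.18 in WT, 1.96 in NTC and 2.14 in UHRF1KO. Whether the lines differ at equal strength of the DMSO peaks was not tested.

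**Figure D3:**
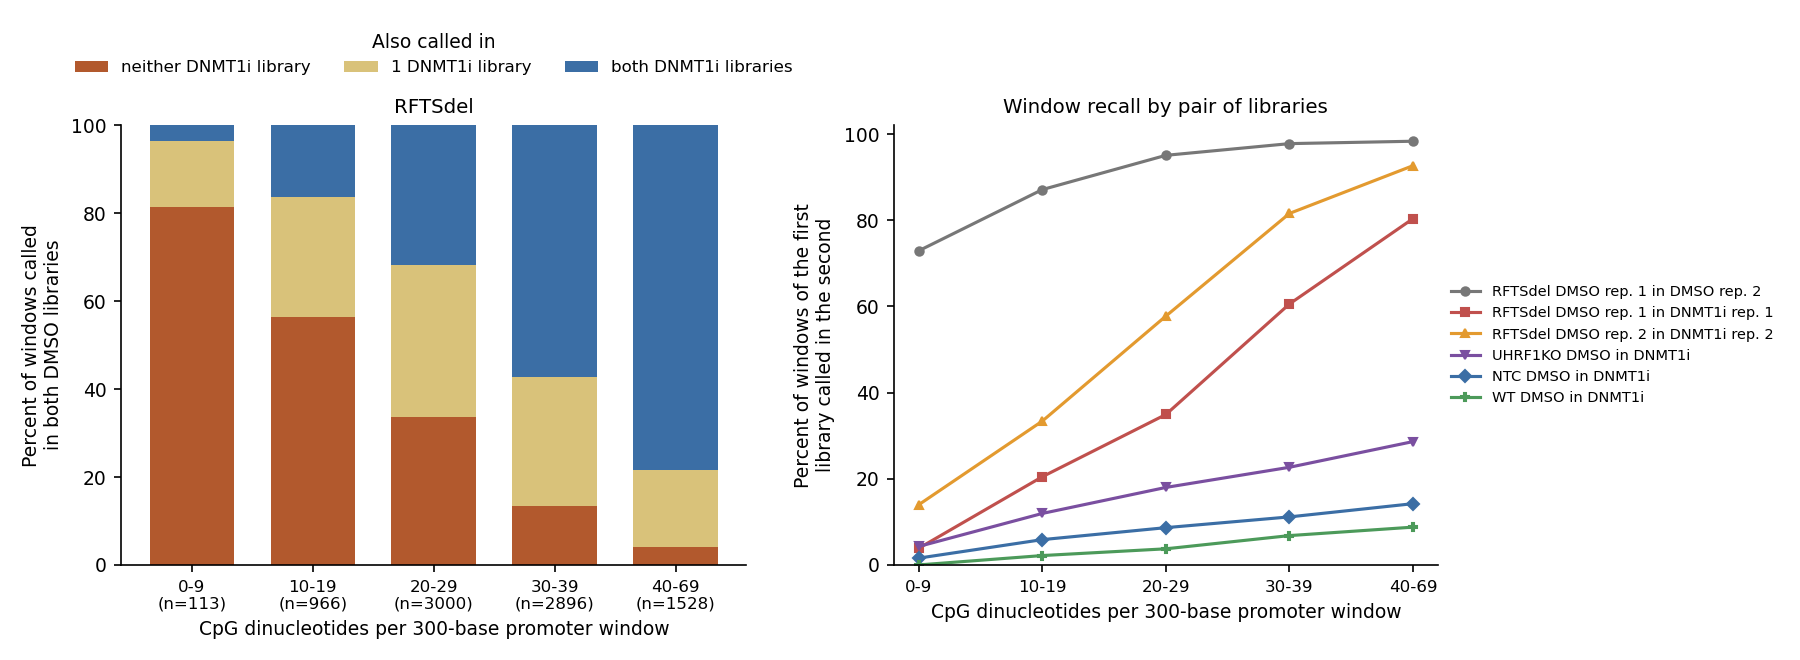
Left, RFTSdel promoter windows called in both DMSO libraries, by CpG number (n under each bar), with the percent also called in neither, 1 or both DNMT1i libraries; right, percent of the windows of a first library called in a second, by CpG number. The retained share is 3.54% at 0 to 9 CpG and 78.4% at 40 or more, and the lines of WT, NTC and UHRF1KO end at 8.77%, 14.2% and 28.6%.

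Short motifs were counted in the windows on both strands by exact letters, as a description of sequence and not of binding. The GC box (GGGCGG), the core recognised by SP and KLF zinc finger proteins, was present in 69.8% of DMSO-only, 88.1% of retained and 92.2% of DNMT1i-only windows, against 56.3% of all windows. An ETS family motif (CCGGAAGT) had the opposite order, 12.2%, 6.92% and 1.19%, against 5.34% of all. Both motifs hold a CpG. Among windows with 20 to 29 CpG, the ETS motif was present in 14.2% of DMSO-only and 7.86% of retained windows and the GC box in 73.0% and 78.8%. The CCAAT box (CCAAT), which NF-Y binds, was present in 38.7%, 30.1% and 23.9% of the 3 classes, against 34.6% of all windows. TATAAA, the TATA box, was present in 3.95%, 2.36% and 2.99%, under the 9.46% of all windows. The remaining motifs counted fell in the same order as the ETS motif. GCATGCGC (NRF1 core) was present in 6.96%, 5.21% and 2.39%, against 3.74% of all windows. For CACGTG (E-box) the shares were 12.1%, 10.3% and 7.16%, against 8.34%, and for TGACGTCA (CRE) 3.53%, 2.79% and 1.79%, against 2.26%. DNMT1i-only windows numbered 335, so their low shares rest on few windows.

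The best DMSO-only promoter peaks were at ZNF414 and USP32. At ZNF414 (19:8513633-8514301, GRCh38) −log10 q was 18.6 and 22.8 in the DMSO replicates, with fold enrichments of 9.32 and 10.7, and no peak was called with DNMT1i. At USP32 it was 12.6 and 14.6. Values of 9.54 to 14.1 were found at LRRC63, SRFBP1, TMEM135, GET1 (insertion of tail-anchored proteins), ERMAP and SVBP at a shared promoter, PEX19 (import of peroxisomal membrane proteins), PEPD (prolidase) and DHDDS (dolichol synthesis). All 10 of these regions were called in WT, NTC and UHRF1KO with DMSO. With DNMT1i none was called in WT, ZNF414 and PEX19 were called in NTC and UHRF1KO, and USP32 and SRFBP1 in UHRF1KO alone. Outside promoter windows the DMSO-only regions ranked 2 to 5 lay 8926 bp from SSC4D (−log10 q 11.49 and 11.99), 67714 bp from IRF2BPL (12.9 and 10.8), in GON4L (12.7 and 10.2) and across an end of CAAP1 (9.52 and 10.0), a gene for which no window was given. In a list ranked by strength these are the exceptions, since 5.82% of windows in the strongest of the 5 strength groups were DMSO-only.

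The strongest peak of DMSO replicate 1 was at a retained promoter. FAM3C (7:121395704-121396724) had −log10 q of 71.6 and 67.6 with DMSO and 23.6 and 39.8 with DNMT1i, and MC5R had 39.1 and 43.0 against 24.9 and 35.2. OXTR, the oxytocin receptor gene, had 39.1 and 24.5 with DMSO and 39.2 and 40.2 with DNMT1i. The chromatin insulator gene CTCF (16:67561795-67564047) had 26.7 and 28.0 with DMSO and 9.84 and 16.2 with DNMT1i. CISD3, LNX2 with POLR1D, TMEM221, DCUN1D2 with SLC9D1, ZNF341 and WDR18 completed the 10 best, with 22.7 to 30.9 with DMSO and 3.02 to 16.0 with DNMT1i. Values from lists of different length do not measure a change in binding, and they are given to show that every one of these peaks was called in all 4 libraries. Outside promoters, retained regions lay 83534 bp from MKI67, 5872 bp from HDHD5, in SRCIN1, 14868 bp from PPP2R2D and in DNAH8. The region in DNAH8, an axonemal dynein gene, had −log10 q of 58.1, 37.5, 44.8 and 48.1 and was called in none of the other 6 GFP-DNMT1 libraries.

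DNMT1i-only regions had weaker peaks, with medians of −log10 q of 1.95 and 2.17 in the DNMT1i replicates against 2.69 and 3.48 for retained regions. SAP25 (7:100573519-100574854) had 8.02 and 20.6, MYO1D had 8.33 and 7.18, and NEK5, a kinase gene, had 5.51 and 7.08. LYSMD2 with TMOD2, FLT1 (a VEGF receptor), TCF7L1 (a Wnt pathway transcription factor), MTUS2, CDX2 (an intestinal homeobox factor), SHROOM1 and ANKRD62 had values from 3.73 to 7.63. Outside promoter windows the best region lay 123587 bp from BARX1, with 21.01 and 17.3. Others lay 5444 bp from ZDHHC22 (11.4 and 16.3), 7786 bp from KCNIP1 (12.8 and 10.1), in HDGFL2 (9.95 and 12.5) and 1685 bp from CALCA (12.7 and 9.23). Those near BARX1 and KCNIP1 and in HDGFL2 were called in no other GFP-DNMT1 library, as were 66 of the 859 regions (7.68%). Of the 10 best DNMT1i-only promoter regions, 4 were on chromosome 13 (NEK5, FLT1, MTUS2 and CDX2), as were 2 of the 10 best retained ones. Chromosome 13 held 28 of the 859 DNMT1i-only regions and 448 of all 19195 regions.

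DNMT1i-only regions of RFTSdel were called more often in the inhibitor libraries of the lines with wild-type DNMT1 than the regions overall. Of the 859 DNMT1i-only regions, 63.9% (95% Wilson interval 60.6 to 67.1) were called in WT DNMT1i, 71.8% (68.7 to 74.7) in NTC DNMT1i and 46.0% (42.7 to 49.3) in UHRF1KO DNMT1i. Of all 19195 regions, 9.63%, 14.5% and 18.3% were called in those libraries, and of the retained regions 3.59%, 12.2% and 32.0%. The shares in WT and NTC DNMT1i were 41.8% and 47.8% without RFTSdel DNMT1i replicate 1, and 42.9% and 52.1% with lists cut to equal length by strength. Both WT and NTC DNMT1i called 502 of the 859 (58.4%), against 7.81% of all regions. Their lists held 4254 and 5840 peaks, fewer than either RFTSdel DNMT1i list. With DMSO, 43.8% of the 859 were called in WT, 47.3% in NTC and 30.3% in UHRF1KO, so they were not absent from untreated cells of other lines. The number called in both WT and NTC DNMT1i and in neither of their DMSO libraries was 151, and 83 were called in all 3 other DNMT1i libraries and in no DMSO library. At −log10 q of at least 4 in every list, 58 DNMT1i-only regions were left, and 10.3% of these were called in WT DNMT1i and 6.90% in NTC DNMT1i. This limit shortens the other lines' lists as well, and the shares of all regions called at it were not computed. At the authors' threshold, 9 of the 10 best DNMT1i-only promoter regions were called in NTC DNMT1i and 6 in WT DNMT1i. The DNMT1i-only regions entered this comparison through the RFTSdel lists, and the other lines' libraries had no part in choosing them.

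DMSO-only regions had the opposite profile. They were called with DMSO in 66.7% of cases in WT, 81.3% in NTC and 91.6% in UHRF1KO, and with DNMT1i in 0.172%, 2.24% and 7.96%. Retained regions were called with DMSO in 89.4%, 95.4% and 96.3% of cases in the 3 lines. Retained sites of the RFTS-deleted protein were thus mostly sites called for wild-type DNMT1 without inhibitor, and fewer of them were called for wild-type DNMT1 with it.

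**Figure D4:**
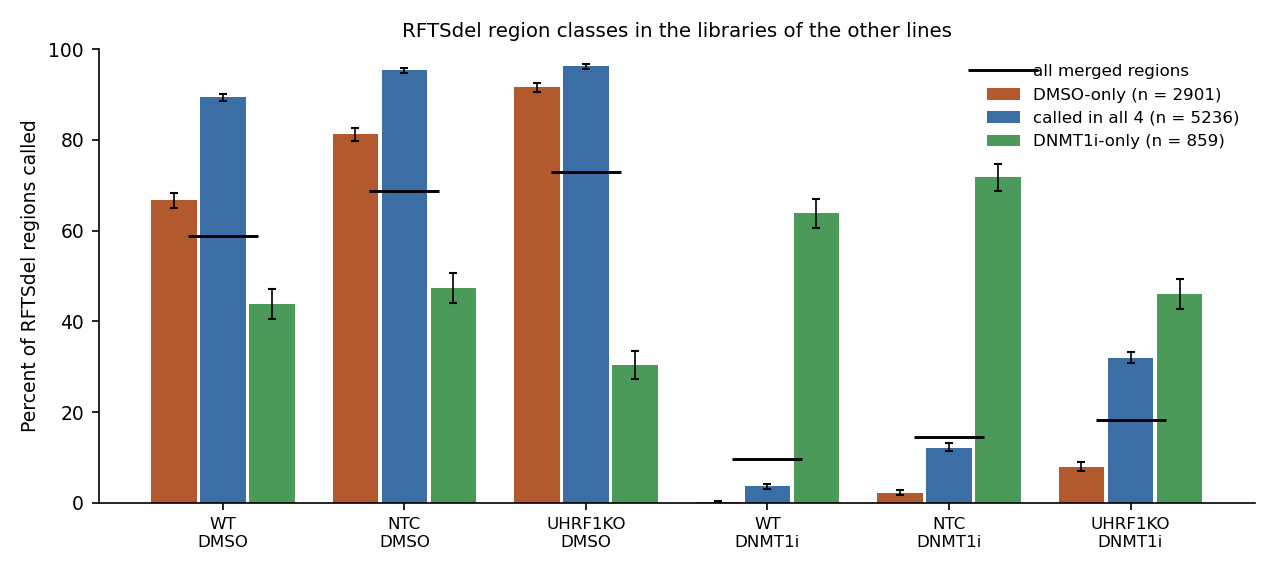
Percent of the RFTSdel DMSO-only, retained and DNMT1i-only regions called in each of the other 6 GFP-DNMT1 libraries, with 95% Wilson intervals (counting error only); black marks give all 19195 regions. DNMT1i-only regions are at 63.9%, 71.8% and 46.0% in the DNMT1i libraries of WT, NTC and UHRF1KO, and DMSO-only regions at 0.172%, 2.24% and 7.96%.

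Gene lists were read against all 15811 genes with a window, of which 10.2% were DMSO-only, 12.3% were called in both DMSO and 1 DNMT1i library, 21.5% were retained and 1.78% were DNMT1i-only. Without DNMT1i replicate 2 the DMSO-only genes numbered 3312 in place of 1616, and DNMT1i-only genes numbered 740 without DNMT1i replicate 1 and 461 without replicate 2, in place of 281. The lists were set with earlier results of these data known and are described by counts alone.

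Of 10 genes of maintenance methylation 6 were retained, beside 21.5% of all genes. Of those called in both DMSO libraries, 75% of 8 were retained, beside 48.9% of all such genes. At DNMT1 itself −log10 q was 7.40 and 13.0 with DMSO and 3.87 and 5.97 with DNMT1i. UHRF1, the reader of hemimethylated DNA, had 6.34 and 8.09 against 2.24 and 3.24. Neither promoter was called with DNMT1i in WT or NTC, and in UHRF1KO DNMT1i the DNMT1 promoter was called. PCNA (the replication clamp that holds DNMT1), USP7 (a deubiquitinase of DNMT1 and UHRF1), ZBTB24 and UHRF2 were also retained. HELLS, a chromatin remodeller needed for methylation, was DMSO-only at 1.96 and 2.89.

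Of 16 genes of the SUMO pathway, 10 were retained, 4 were called in 1 DNMT1i library, and RANBP2 was DMSO-only. SUMO3 (a SUMO modifier) had −log10 q of 12.01 and 13.7 with DMSO and 5.05 and 6.26 with DNMT1i, and the ligase gene PIAS2 had 11.4 and 16.0 against 3.72 and 4.20. SUMO2 and PIAS4 were among the others. Of 16 genes of repeat and heterochromatin silencing, 8 were retained, among them CBX3, which encodes an HP1 protein, the silencing ATPase genes SMCHD1 and MORC3, and EHMT2, a histone H3 lysine methyltransferase gene, and PPHLN1 and SUV39H2 were DMSO-only. Of genes called in both DMSO libraries, 66.7% of 15 SUMO genes and 61.5% of 13 silencing genes were retained, beside 48.9% of all such genes. Of 6 genes of de novo methylation and oxidation, DNMT3A and TET3 were retained and the glycosylase gene TDG was DMSO-only. Of 9 methyl-CpG reader genes, MBD2, MBD3 and MBD6 were retained, MBD4 and MBD5 were DMSO-only, and ZBTB38 was DNMT1i-only at 2.19 and 2.68. ZBTB38 was called with DNMT1i in WT and NTC too.

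Ribosomal protein, histone and oxidative phosphorylation genes had the most DMSO-only members for their number, and their windows had medians of 25, 12 and 23 CpG, against 24 for all genes. Among genes called in both DMSO libraries the medians were 27, 13 and 26, against 31 for all such genes. Of 68 ribosomal protein genes, 41 and 52 were called in the DMSO replicates and 6 and 18 in the DNMT1i replicates, and 23 were DMSO-only, 11 were called in 1 DNMT1i library and 5 were retained (RPS15, RPS29, RPL35, RPL15 and RPL13). RPS15, for example, had −log10 q of 13.2 and 16.2 with DMSO and 7.80 and 4.26 with DNMT1i. Of 64 replication-dependent histone genes, 16 were DMSO-only and 4 were retained (H2AC11, H1-4, and H2AC25 with H2BC26 at a shared promoter). Several of these genes shared a peak, so they are not all separate sites. DMSO-only H2BC11 had the same DMSO values as retained H2AC11 (3.07 and 2.32), and DMSO-only H2BC5 the same as retained H1-4 (2.18 and 3.50). A DMSO-only window can thus lie under the same DMSO peak as a retained one. H2AC15 with H2BC15 and H2AC6 with H2BC4 were DMSO-only pairs of equal values. Of 68 oxidative phosphorylation genes, 18 were DMSO-only and 13 retained, among them NDUFC1, COX4I1, NDUFB10 and NDUFV3. Of 40 replication genes, 30 and 34 were called with DMSO and 9 and 19 with DNMT1i; 9 were DMSO-only, including MCM2, MCM6, CDT1 and CDC45 of the replicative helicase and its loading, 14 were called in 1 DNMT1i library, and 6 were retained, among them the polymerase genes POLE, POLE4 and POLD1 and the helicase gene MCM7.

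The retained shares of the lists were also read by CpG number, under 30 and 30 or more. These groups do not hold CpG number equal. Of windows called in both DMSO libraries, 57.4% were retained at 30 to 39 CpG and 78.4% at 40 or more. Among all genes called in both DMSO libraries, 26.9% of those with under 30 CpG and 65.7% of those with 30 or more were retained, with the window of most CpG taken for each gene. With 30 or more CpG, 5 of 18 replication genes (27.8%), 4 of 13 ribosomal protein genes (30.8%) and 7 of 16 oxidative phosphorylation genes (43.8%) were retained, against 8 of 12 SUMO genes (66.7%) and 10 of 13 KMT2A fusion targets (76.9%). The median −log10 q of these genes in DMSO replicates 1 and 2 was 5.15 and 5.36 for replication genes, 4.13 and 5.27 for ribosomal protein genes, and 6.58 and 6.71 for all genes. For the KMT2A fusion targets it was 5.62 and 4.72. For SUMO genes the median was 8.93 and 7.66, and for oxidative phosphorylation genes 4.41 and 5.12. Whether CpG number or peak strength with DMSO accounts for the different shares retained was not tested.

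Targets of KMT2A fusion proteins were retained in 10 of 19 cases and myeloid identity genes in 3 of 19 (15.8%), beside 21.5% of all genes. These shares also depend on how many genes were called with DMSO. Of genes called in both DMSO libraries, 66.7% of 15 fusion targets and 42.9% of 7 myeloid genes were retained, beside 48.9% of all such genes. Of the 19 fusion targets, 16 and 15 were called with DMSO and 12 and 13 with DNMT1i. FLT3, the receptor kinase gene of this leukaemia, had −log10 q of 21.2 and 22.4 with DMSO and 6.16 and 11.6 with DNMT1i, and CPEB2, AFF1, RUNX1, CDK6, MYB, MBNL1, JMJD1C, RUNX2 and SENP6 were the other retained genes. MEF2C was DMSO-only, and MEIS1, PBX3, HOXA10 and BCL2 were called in 1 DNMT1i library. Of the myeloid genes, the transcription factor genes CEBPA, CEBPB and GFI1 were retained and CD68, PRTN3 and AZU1 were DMSO-only; the first 3 had 27 to 50 CpG and the last 3 had 2 to 9. Of 18 lymphoid and erythroid genes, RAG1 and TAL1 were retained and no other was called in both DMSO libraries. Peak lists hold no expression values, so these counts show where the protein was called and not whether a gene was active.

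Developmental transcription factor and potassium channel genes had the highest counts of DNMT1i-only members, 7 and 6. By share, at 7.95% and 8.45%, they lay below the shorter lists of methyl-CpG readers (1 of 9, 11.1%) and imprinted genes (2 of 21, 9.52%) and near germline genes (2 of 25). Of 88 developmental transcription factor genes, 13 and 11 were called with DMSO and 17 and 31 with DNMT1i; none was DMSO-only, and the DNMT1i-only genes were FOXA3, FOXF2, GSX1, LHX2, LHX3, NKX3-2 and TBX1. Of all genes 1.78% were DNMT1i-only. At NKX3-2 −log10 q was 4.13 and 3.45, at GSX1 3.32 and 2.76, and over the 7 genes it ranged from 1.51 to 4.13 in replicate 1 and from 1.77 to 3.45 in replicate 2. NTC DNMT1i called 6 of the 7 and WT DNMT1i 3, and NTC DMSO called 5. FOXD2, ATOH8, PITX1, FOXA1 and LHX4 were retained. Of 71 potassium channel genes, 6 were DNMT1i-only (KCND3, KCNG3, KCNIP2, KCNK3, KCNK4 and KCNQ5) and 4 were retained (KCNK5, KCNC4, KCNAB2 and KCNK13). Both lists are among those fixed with earlier results known, and no set test was made.

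Genes of germline defence, imprinting and viral sensing were read beside all genes, of which 21.5% were retained, 10.2% DMSO-only and 1.78% DNMT1i-only. Retained shares of imprinted (23.8%) and viral sensing genes (19.2%) were near that of all genes. Of genes called in both DMSO libraries, 62.5% of 8 imprinted and 41.7% of 12 viral sensing genes were retained, beside 48.9% of all such genes. The DMSO-only share was 9.52% of imprinted and 15.4% of viral sensing genes. Of 25 germline genes, MAEL (−log10 q 1.69 and 3.57 with DNMT1i) and TDRD9 (2.19 and 1.76), both of the piRNA pathway that silences transposons, were DNMT1i-only, the meiotic cohesin gene STAG3 was DMSO-only at 3.13 and 4.65, and none was retained. Of 21 imprinted genes, UBE3A, INPP5F, GRB10, PLAGL1 and ATP10A were retained, MKRN3 and WT1 were DMSO-only, and GNAS and TP73 were DNMT1i-only. Of 26 genes of viral sensing and interferon response, 5 were retained: the RNA-sensing adaptor MAVS, the kinase TBK1, IRF1, and CMPK2 with RSAD2 at a shared peak. EIF2AK2, which encodes the double-stranded RNA kinase PKR, was DMSO-only at 8.61 and 10.4, as were ADAR, MX1 and SAMHD1. Of 430 zinc finger genes, 74 were retained (17.2%), 57 DMSO-only (13.3%) and 1 DNMT1i-only, and the best retained were ZNF341, ZNF783, ZNF48 and ZNF837. Of 20 HOX genes HOXA13 was retained. Of 47 clustered protocadherins PCDHGC3 was DMSO-only, and of 312 olfactory receptor genes OR2L13 was DNMT1i-only.

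Along the genome, chromosome X stood out from the autosomes. Of its 214 regions called in both DMSO libraries, 45.8% (95% Wilson interval 39.3 to 52.5) were DMSO-only, against 26.7% (25.8 to 27.5) of the autosomal regions, and the autosomes ranged from 19.3% on chromosome 13 to 31.1% on chromosome 19. The median of all promoter windows was 16 CpG on chromosome X and 21 on the autosomes. Of the DNMT1i-only regions 4 were on chromosome X. Some regions of the autosomes held several DNMT1i-only sites close together: 8 of the 23 regions called in both DNMT1i libraries between 25 and 30 Mb of chromosome 13, which holds CDX2, FLT1 and MTUS2, were DNMT1i-only, and 9 of 22 between 125 and 130 Mb of chromosome 7. Both stretches were picked after their values were seen. Of all regions called in both DNMT1i libraries 13.6% were DNMT1i-only, and the 5 Mb stretch with the most of them, 0 to 5 Mb of chromosome 19, held 16 of 101. Over whole chromosomes the share was 18.8% on chromosome 13, the highest of any, and 15.1% on chromosome 7.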

How the data were processed

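GFP-DNMT1 ChIP-seq peak lists of 11 libraries were used; the 2 input samples were not used here. The authors worked on GRCh38 with MACS2, BWA, Picard, deepTools and cutadapt, per the submitters' processing notes. Versions, settings and the control library used by the caller: not given in the sources used here. Peaks were called by the authors in each library separately. The deposited fold column is the authors' ratio of signal to background at a peak. The deposited −log10 columns are the −log10 p and −log10 q of the authors' caller. In 99.99% of peaks the deposited score was the whole-number part of −log10 q times 10. The lowest −log10 q of any list was 1.00, which implies a cutoff at q 0.1. Depth is unknown.

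Peaks on chromosomes 1 to 22 and X were kept, and those overlapping 1 of 426 parental peaks by 1 bp were removed (415, 417, 299 and 354 in the RFTSdel lists, DMSO first). Lists were merged into regions at 1 bp overlap. Promoter windows and gene positions came from RefSeq (GRCh38.p14): 22131 windows of 15811 of 19970 protein-coding genes (79.2%), none on chromosome 8, so shares at promoters are lower limits and a gene without a window enters no promoter count. A gene was called when any of its windows was. The batch numbers of the sample labels were followed; the series' design text numbers the batches in the opposite way.

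Library values were compared with exact two-sided permutation tests, 2 against 2, whose smallest p is 0.333. Members and the 21 gene lists were chosen with earlier results of these data known. Named sites were, per class, the 10 promoter regions and 5 other regions with the highest value of the lower replicate's −log10 q, up to 4 members per list (retained first) and DNMT1 and UHRF1; further list members were named after their calls were seen, and the first-ranked DMSO-only region outside promoters, on chromosome 8, is not reported here. Alternatives left parental-overlapping peaks in, raised the threshold to −log10 q 2 or 4 or to fold 4, cut lists to equal length, merged peaks within 1 kb, required 50% cover, widened promoters to 1 kb, used protein-coding genes alone, added UHRF1KO to the comparator, paired replicates and left out each library. The code was tested on simulated lists made from the 12240 peaks of DMSO replicate 1 and gave 13 of 13 correct results. Software was Python 3.11.15 with scipy 1.17.1, numpy 2.4.6, matplotlib 3.10.9 and pandas 2.3.3.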

Additional observations from a re-analysis of the deposited data

Results flagged for a closer look

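Peaks outside chromosomes 1 to 22 and X entered no comparison. RFTSdel DMSO replicates 1 and 2 held 5 and 6 such peaks and DNMT1i replicates 3 and 3, and the parental list held 0 of its 426 peaks there. The parental list was far shorter, and these peaks were looked at no further.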

How the results depend on the processing

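Each of 15 results was recomputed under the alternatives that bear on it, and 111 values counted as the same, while 47 moved and 6 changed sign. A tested result was the same when it kept its direction and side of the threshold, and no test could pass at this size. Counts had to stay within a set fold range of the main value and percentages within its Wilson interval. The CpG gap had to stay within the SD between replicates. The log2 differences of peak number (−2.08 to −0.51, or −0.79 to −0.23 when 1 library was left out) and covered length (−2.39 to −0.31, or −0.97 to −0.26) and the CpG difference (2 to 4.5) kept their sign, and the gap to the wild-type pairs ranged from 0.15 at −log10 q of at least 4 to 1.75 with UHRF1KO added (p = 1 and 0.100, exact permutation test, n = 2 RFTSdel pairs). The second of these p values is the smallest that the permutation test allows once UHRF1KO is added. At −log10 q of at least 2 the promoter share differed by 0.25 points, DNMT1i-only regions numbered 306 (42.5% called in WT DNMT1i, 49.3% in NTC DNMT1i) and retained ones 3472, DNMT1i-only genes 107, and the CpG gap between retained and DMSO-only windows was 10. At −log10 q of at least 4 the share outside genes differed by 3.55 points, DNMT1i-only regions numbered 58 (10.3% and 6.90%) and retained ones 699, genes were 2692 DMSO-only, 16 DNMT1i-only and 420 retained, and the CpG gap was 6.5. At fold of at least 4 these values were 0.27 points, 326 (40.2% and 46.0%), 2277, 2529, 117, 1544 and 8. With lists cut to the shortest, the share outside genes differed by 2.02 points, DMSO-only regions numbered 1028 and genes 791, the shares in WT and NTC DNMT1i were 42.9% and 52.1%, and the CpG gap was 10; the ratios of peak number are fixed by that cut and were not computed. With 50% cover, retained regions numbered 2271 and the shares were 55.6% and 64.6%. With promoters of 1 kb the promoter share differed by 6.05 points and DNMT1i-only genes numbered 524. The cause of these shifts was not tested. Leaving out 1 library at a time gave ranges of 3218 to 5765 DMSO-only, 938 to 3015 DNMT1i-only and 5316 to 7504 retained regions, of 41.8% to 60.6% in WT DNMT1i and 47.8% to 69.2% in NTC DNMT1i, of 1825 to 3312, 307 to 740 and 3421 to 5091 genes, of 8 to 13 for the CpG gap, and of −2.99 to 1.48 points for the promoter share, which changed sign without DMSO replicate 1 (1.48). Same-numbered libraries did not deviate together (correlation −0.045 over regions, 2 pairs), and with the replicate block the differences were the same (−0.51, −0.62, −0.76, −1.96 and 3.5), with exact sign-flip p of 0.5, or 1 for the promoter share. Depth is unknown in peak lists and limits every count.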
